A study of Sus scrofa with 8 samples.

Results

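Iron transport, ferritin and hemoglobin genes were examined in lung tissue of Tibetan and Duroc pigs raised at high or low altitude. The 9 listed genes were TF, ICA, TFRC, FTH1, FTL, HAMP, HP, HPX and HBB. A probe was taken as a member when its symbol, from the study's supplementary tables or from a RefSeq accession in the array files, was one of these and when it was well above background on at least 1 array. This gave 18 probes of 8 genes, out of 34401 tested probes and 43603 noncontrol probes on the array. FTH1 had 10 probes, HP had 2, and TF, ICA, TFRC, HAMP, HPX and HBB had 1 each. FTL had no named probe here. The groups were female Tibetan pigs kept at their native 3500 m (TH), Tibetan pigs moved at 1 month of age to 40 m (TL), Duroc pigs kept at their native 40 m (DL) and Duroc pigs moved at 1 month of age to 3500 m (DH). All pigs were 6 months old, and each of the 4 groups was represented by 2 pigs on 2 single-color Agilent arrays. Breed was confounded with the place of birth, and the high groups combined a native group with a moved group, as did the low groups.

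Iron circulates bound to transferrin and enters cells through the transferrin receptor. Inside cells it is stored in ferritin shells made of heavy and light chains, and hepcidin, the peptide encoded by HAMP, limits iron export by bringing about the loss of ferroportin from the cell surface. Hemoglobin that escapes from red cells is captured by haptoglobin, and free heme is captured by hemopexin. TF, HAMP, HP and HPX are best known as products of the liver, HBB is best known from red cells and their precursors, and the lung also makes haptoglobin and ferritin.

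All values below are the deposited log2 values, which had the same median (7.40) on every array. The TL arrays stood apart before normalization, with median raw signals of 324 and 333.5 against 207.5 to 230 on the other arrays. Probes well above background numbered 31641 and 31722 on the TL arrays and 26465 to 29316 on the other arrays. The median SD between the arrays of a group was 0.034 to 0.046 on the log2 scale. Probes printed repeatedly differed by a median of 0.051 between spots of the same array and by 0.051 between the arrays of a group, so the p-values measure a spread no larger than that between spots. TH and DL were hybridized on slide 1, and DH and TL on slide 2. The breed effect (Tibetan minus Duroc) and the altitude effect (high minus low) were each balanced over the slides. The interaction, (TH minus TL) minus (DH minus DL), and the 4 contrasts between single groups cannot be told apart from slide. In these pieces of whole tissue, fewer cells of a type and less RNA per cell cannot be told apart. The lung label was borne out by its markers. All 5 tested of 8 lung epithelium markers were above background on all 8 arrays, with a summed level of 19.68 to 20.10 on the log2 scale. The summed levels of endothelial markers (5 of 6 tested) and skeletal muscle markers (8 of 9 tested) ranged from 17.97 to 18.47 and from 11.99 to 12.88.

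Among the 18 member probes, 4 passed the test for breed (FDR below 0.0001 in limma, adjusted over all 34401 probes), against 27.4% of all tested probes. HPX, HBB and TF were higher in Tibetan pigs and ICA was lower. For altitude, 3 of 18 passed, against 26.3% of all tested probes, with HPX higher at high altitude and ICA and HAMP lower. For the interaction, 4 of 18 passed, against 28.4% of all tested probes. HPX had a positive interaction, and TF, ICA and HP had negative ones. Since 10 of the 18 probes measured FTH1, which was called in none of these comparisons, the shares are weighted toward that gene. The median difference over the 18 probes was 0.02 for breed, -0.05 for altitude and -0.12 for the interaction, and over all tested probes it was -0.07, 0.01 and 0.21. With FDR below 0.05, 5 member probes passed for breed (71.6% of all tested probes), 6 for altitude (70.9%) and 10 for the interaction (73.7%). The symbol of HBB came from a table as given that lists transcripts by their breed effect, and that of TF from a list of differential transcripts. The breed values of HBB and TF and the interaction of TF are therefore descriptions of probes chosen on these arrays. Without these 2 probes, 2 of 16 passed for breed, 3 of 16 for altitude and 3 of 16 for the interaction. The symbol ICA also came from the list of differential transcripts. That probe stays in these counts because its RefSeq accession, listed under the symbol TF, makes it a member without that list.

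**Figure D1:**
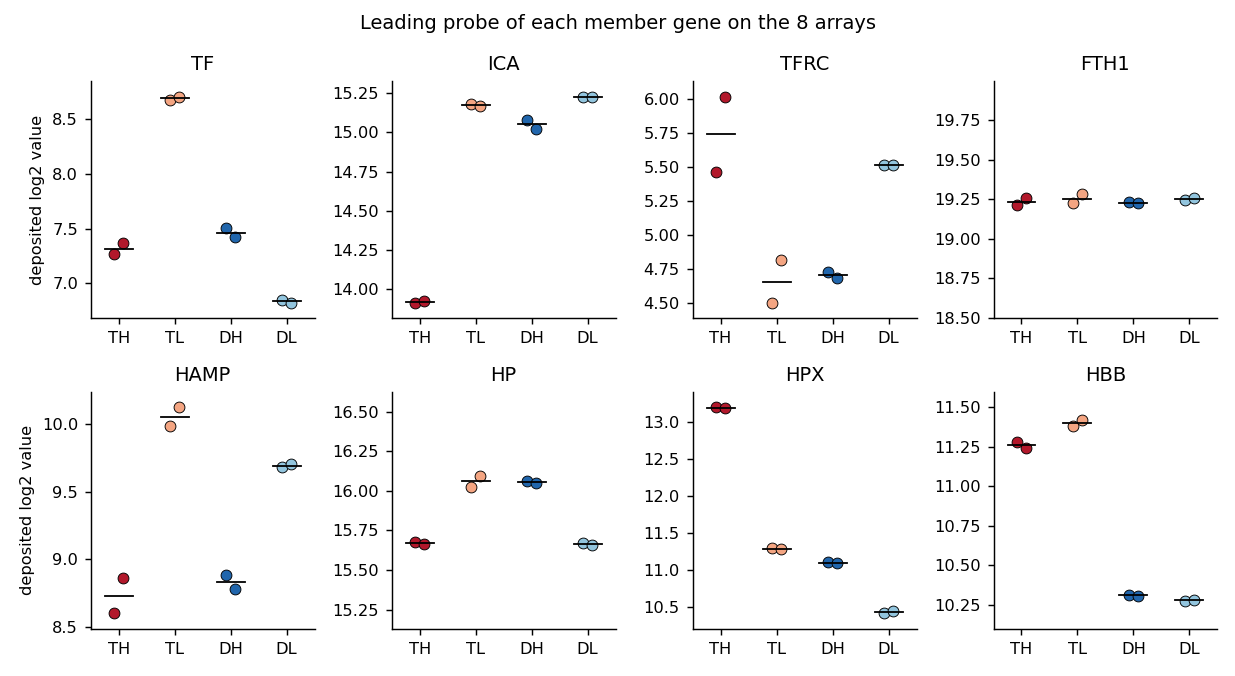
Deposited log2 value of the leading probe (highest mean) of each of the 8 measured genes on the 8 arrays, with points for arrays and bars for group means; each panel has its own vertical scale and spans at least 1.5 log2 units. HPX was highest in TH, ICA was lowest in TH, TF was highest in TL, HAMP was lower in TH and DH, and HBB separated the breeds.

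**Figure D2:**
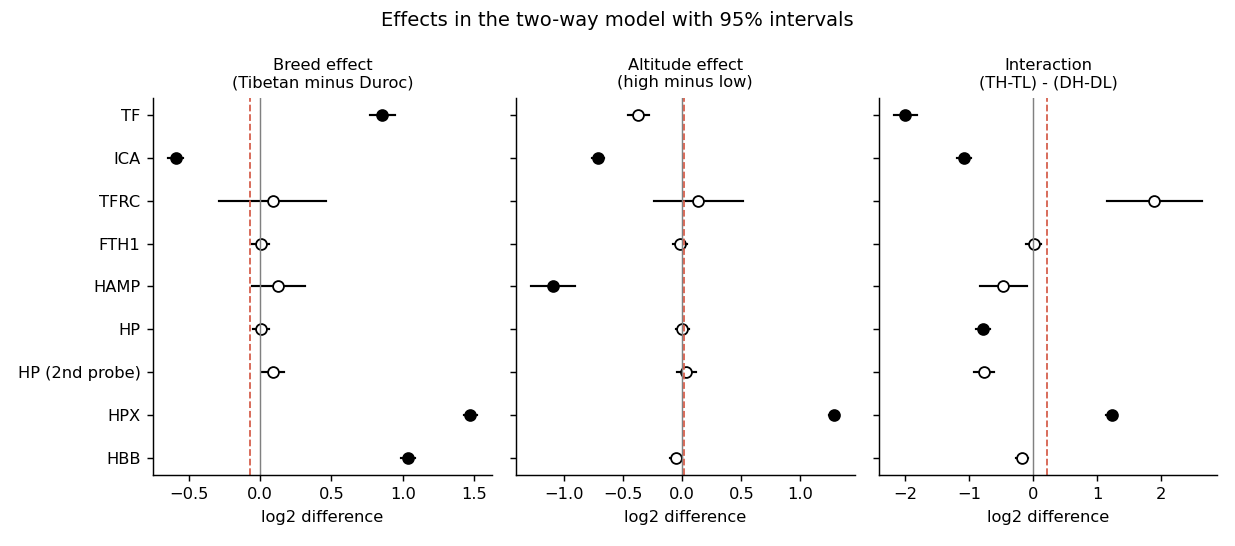
Breed effect, altitude effect and interaction in log2 units for the leading probes and the other HP probe, with 95% intervals from limma; filled points passed FDR below 0.0001 and the dashed line is the median over all tested probes. HPX was above 0 in all 3 panels (1.47, 1.29 and 1.23), while the FTH1 intervals included 0 in each; TFRC was at or near background in 3 of 4 groups, and TF and HBB were named through effects shown here.

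TF, which encodes the iron carrier of plasma, was highest in TL (probe A_72_P204797). Its log2 values were 7.27 and 7.37 in TH, 8.67 and 8.71 in TL, 7.50 and 7.42 in DH, and 6.85 and 6.82 in DL. The TL arrays lay above all others and the DL arrays below all others, with TH and DH between them. Because the probe was named through its breed effect and interaction, the values made of those effects are given without a test. TF was 2.59-fold lower in TH than in TL (log2 difference -1.37, SE 0.05) and 3.62-fold higher in TL than in DL (1.86, SE 0.05). In Duroc pigs TF was 0.63 higher at high altitude, and the interaction was -2.00 (SE 0.07). Averaged over the breeds, the altitude difference of -0.37 was not called (adjusted p = 3.39e-04 in limma). With local background and normexp at an offset of 50, the TF interaction was -0.64 in place of -2.00 and the difference between TL and DL was 0.60 in place of 1.86. The interaction did not pass the threshold without DL 1, DL 2, DH 1, TL 1 or TL 2 or with a replicate block, with estimates from -2.05 to -1.95 when 1 array was left out, and TH minus TL did not pass it without either TL array (-1.42 to -1.32 over all 8 arrays left out in turn).

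ICA, the inhibitor of carbonic anhydrase, is a relative of transferrin that binds carbonic anhydrase. Its probe (A_72_P035546) carries a RefSeq accession that the RefSeq gene table lists under the symbol TF, which is also the symbol of a neighboring gene there, and whether it also binds transcripts of related transferrin genes was not tested. ICA was 13.91 and 13.92 in TH, 15.18 and 15.17 in TL, 15.08 and 15.02 in DH, and 15.23 and 15.22 in DL. The TH arrays stood more than 1 log2 unit below the other 6, which spanned 15.02 to 15.23. ICA was 2.39-fold lower in TH than in TL (log2 difference -1.26, SE 0.03, adjusted p = 1.89e-06 in limma) and 2.19-fold lower in TH than in DH (-1.13, SE 0.03, adjusted p = 1.26e-05). In Duroc pigs the altitude difference was -0.18 (adjusted p = 0.00405 in limma, not called). The breed effect was -0.59, the altitude effect -0.72 and the interaction -1.08, each called (adjusted p at most 1.19e-05 in limma). Under scaling to the 75th percentile of each array, TH was still lowest, but TL was low as well, with group means of 3.27 (TH), 3.83 (TL), 4.47 (DH) and 4.55 (DL) relative to that percentile. TL minus DL turned from -0.05 to -0.72 (adjusted p = 9.69e-06 in limma, a call gained), the altitude effect was -0.32 and the difference between TH and TL was -0.56. The interaction lost its call under that scaling (-0.48, adjusted p = 2.23e-04 in limma), with normexp on the median signals (adjusted p = 1.08e-04) and with a replicate block (adjusted p = 1.13e-04).

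TF and ICA thus had different patterns, with TF highest in TL and ICA lowest in TH. TFRC, the receptor that brings transferrin into cells, was close to background (probe A_72_P035411). It was well above background on both TH arrays and 1 TL array, with log2 values of 5.46 and 6.02 in TH, 4.50 and 4.81 in TL, 4.72 and 4.69 in DH, and 5.51 and 5.52 in DL. The TH and DL arrays overlapped, as did the TL and DH arrays. TFRC was not well above background on any DH or DL array. In the deposited values TH minus DH was 1.04 (adjusted p = 0.00924 in limma, not called). With DH held at the detection floor, TH was at least 1.08-fold higher, a bound on which no test was run. That bound sets the dim group at the lowest signal of probes well above background on its arrays, or at its own value where higher. No TFRC comparison was called, and no interaction is given because 3 of the 4 groups were at or near background.

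HAMP, the hepcidin gene, was lower at high altitude in both breeds (probe A_72_P302614). The values were 8.60 and 8.86 in TH, 9.98 and 10.12 in TL, 8.88 and 8.78 in DH, and 9.68 and 9.71 in DL. The 4 arrays of the high groups reached at most 8.88, and the 4 arrays of the low groups were at least 9.68. TH and DH overlapped, whereas TL lay above DL by 0.36 (adjusted p = 0.0228 in limma, not called). HAMP fell by 1.09 on the log2 scale at high altitude (SE 0.07, adjusted p = 9.55e-05 in limma), a 2.13-fold difference with a 95% interval of 1.88 to 2.43. The difference was -1.33 in Tibetan pigs (adjusted p = 1.32e-04 in limma) and -0.86 in Duroc pigs (adjusted p = 0.00134), neither past the threshold on its own, and the interaction of -0.47 was not called (adjusted p = 0.0331). Within slide 1, TH was 0.96 below DL, and within slide 2, TL was 1.22 above DH. The altitude call was close to the threshold. It was lost with no filter on dim probes, without moderation of the variances (adjusted p = 5e-04), with a replicate block (adjusted p = 4.21e-04), and without any one of the arrays (adjusted p from 1.83e-04 to 8.82e-04), with a difference of -1.03 to -1.16. With local background and normexp at an offset of 50 the difference was -0.63.

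FTH1, the ferritin heavy chain that oxidizes iron for storage, varied little across the groups in the deposited values. The 10 probes ranged from 17.41 to 19.28, near the top of the scale at 19.44, and no spot on any array was saturated. The brightest probe (A_72_P388104) stayed within 0.07 log2 units over the 8 arrays, and the widest range of any FTH1 probe was 0.33. In the deposited values the 10 probes had a median breed difference of 0.0030, a median altitude difference of -0.05 and a median interaction of -0.02. With those values none was called in any of the 7 contrasts. At an unadjusted p under 0.05, 1 FTH1 probe passed for breed (73.8% of all tested probes), 2 for altitude (72.8%) and 2 for the interaction (75.4%). In the single contrasts, 5 passed in Tibetan pigs (77.4%), 2 in Duroc pigs (64%), 1 at high altitude (63.1%) and 2 at low altitude (78.6%). The probe with the largest interaction, A_72_P417204, was chosen after its values were seen. It was 17.91 and 17.94 in TH, 18.21 and 18.21 in TL, 18.12 and 18.15 in DH, and 18.06 and 18.04 in DL. This interaction was -0.37 (adjusted p = 4.14e-04 in limma). These differences depended on the scaling. With each array scaled to its 75th percentile, the median over FTH1 probes was -0.25 for breed, 0.28 for altitude and 0.39 for the interaction, and the TL arrays were lowest for all 10 probes. Under that scaling the brightest probe was called for breed, altitude, TH minus TL and TL minus DL (adjusted p at most 9.85e-05 in limma). A_72_P417204 was called in the same contrasts (adjusted p at most 3.68e-05 in limma).

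**Figure D3:**
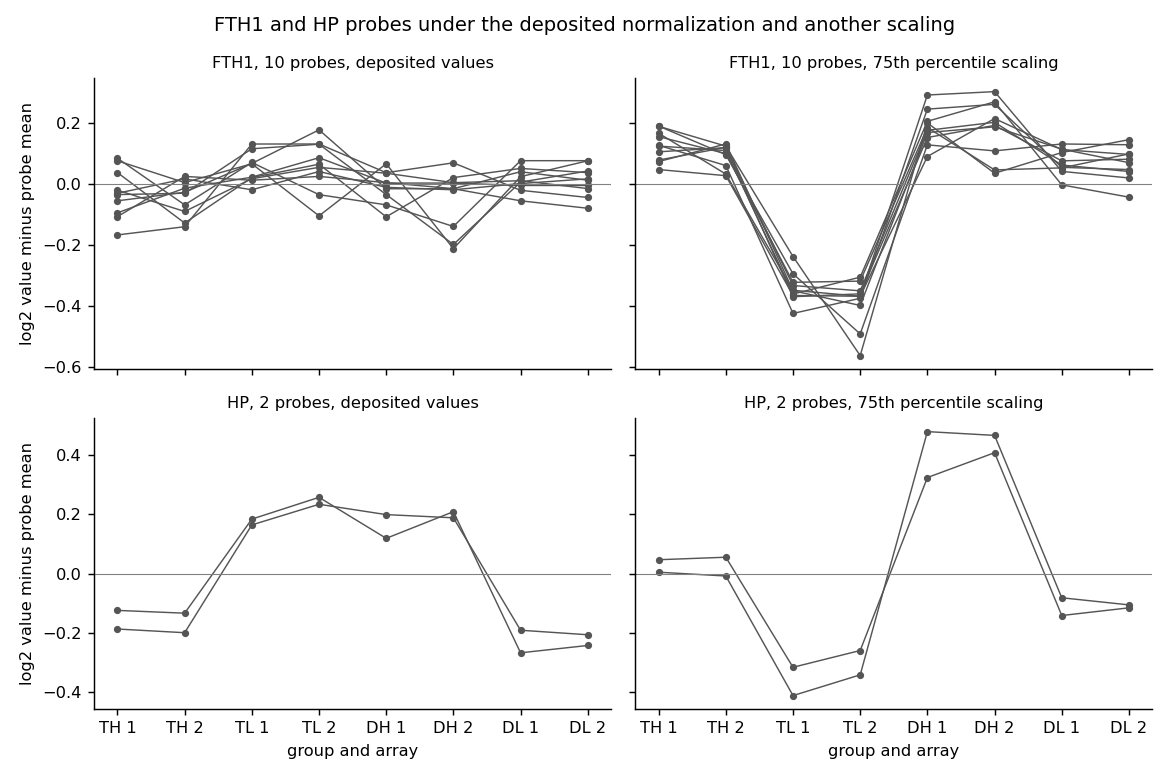
Log2 value of each FTH1 probe (10, top) and HP probe (2, bottom) minus its own mean, by array, in the deposited values (left) and after scaling each array to its 75th percentile (right); lines join the arrays of a probe. In the deposited values FTH1 varied by at most 0.33 and HP was higher in TL and DH, whereas under the other scaling both genes were lowest in TL.

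HP, which encodes the hemoglobin scavenger haptoglobin, was higher in both moved groups in the deposited values. The leading probe (A_72_P178006) had values of 15.68 and 15.66 in TH, 16.03 and 16.10 in TL, 16.06 and 16.05 in DH, and 15.67 and 15.66 in DL. The native groups overlapped with each other, the moved groups overlapped with each other, and the gap between them was over 0.3 log2 units. The interaction was -0.78 (SE 0.04, adjusted p = 5e-05 in limma), and the breed and altitude differences were 0.0054 and 0.00010 (adjusted p = 0.837 and 0.999). The other HP probe (A_72_P395143) had values of 14.20 and 14.19 in TH, 14.51 and 14.58 in TL, 14.44 and 14.53 in DH, and 14.06 and 14.08 in DL, and its interaction of -0.77 missed the threshold (adjusted p = 1.82e-04 in limma). The contrast of moved with native pigs coincides with the contrast of slides, and they cannot be told apart. The higher HP level in DH than in DL (0.39 at the leading probe, adjusted p = 3.23e-04 in limma, not called) kept its direction under scaling to the 75th percentile (0.57). The TL value did not. Relative to DL, HP in TL was 0.40 higher in the deposited values and 0.28 lower under that scaling, relative to TH it turned from 0.39 higher to 0.37 lower, and the interaction shrank to -0.19 (adjusted p = 0.0122 in limma). The HP interaction was not called without any one of the arrays (adjusted p from 2.1e-04 to 5.56e-04, estimates from -0.82 to -0.75).

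HPX, which encodes the heme scavenger hemopexin, had the widest spread among the member probes and was highest in TH (probe A_72_P302769). Its values were 13.20 and 13.19 in TH, 11.30 and 11.28 in TL, 11.11 and 11.10 in DH, and 10.42 and 10.45 in DL. No groups overlapped, and the order was TH, TL, DH and DL. HPX rose by 1.90 log2 units in TH relative to TL, a 3.73-fold difference (SE 0.02, adjusted p = 5.79e-07 in limma). In Duroc pigs it was 0.67 higher at high altitude, a 1.59-fold difference (SE 0.02, adjusted p = 3.44e-05 in limma), and the interaction was 1.23 (SE 0.03, adjusted p = 4.86e-06). HPX was 4.25-fold higher in TH than in DH and 1.81-fold higher in TL than in DL. The breed effect was 1.47 and the altitude effect 1.29 (both SE 0.02), and these 2 calls held under every alternative and with any single array left out. The call in Duroc pigs was lost with any single array left out, with normexp on the median signals, with a replicate block and without the TL arrays (adjusted p = 3.44e-04 in limma for the same difference of 0.67).

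Most tested markers of hepatocytes were, like HPX, highest in TH. Of 10 listed markers 8 were tested, all above background on all arrays, and 7 of the 8 were highest in TH: ALB, TTR, APOC3, SERPINA1, AMBP, FGB and FGG. The remaining marker, APOA1, was highest in DH. APOC3, FGB and FGG were named only through tables chosen on these arrays, so their values, also in the sum below, are descriptions. The summed level of the 8 markers was 16.20 to 16.22 in TH, 15.16 to 15.18 in TL, 15.06 to 15.10 in DH and 14.51 to 14.52 in DL. This is the order of HPX, but the sum is weighted toward the brightest markers. ALB, TTR, APOC3 and SERPINA1 had that order, and AMBP, FGB, FGG and APOA1 did not. FGB and FGG were lower in DH than in DL (-0.52 and -0.66), where HPX was higher. ALB had the negative interaction (-1.07), and APOA1 was 0.49 lower in Tibetan pigs (not called). For breed 7 of the 8 were called higher and none lower, for altitude 6 higher and none lower, and for the interaction 6 higher and 1 lower. Over all tested probes 12.8% were called higher and 14.6% lower for breed, 14% and 12.2% for altitude, and 14.9% and 13.5% for the interaction. Over the 5 markers named independently of these effects, 4 were higher for breed, 4 for altitude and 3 for the interaction, with 1 lower. The part of such markers in the HPX result was not tested. The other members best known as liver products did not have this order, with HAMP low in TH and DH, HP overlapping between TH and DL, and TF highest in TL.

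**Figure D4:**
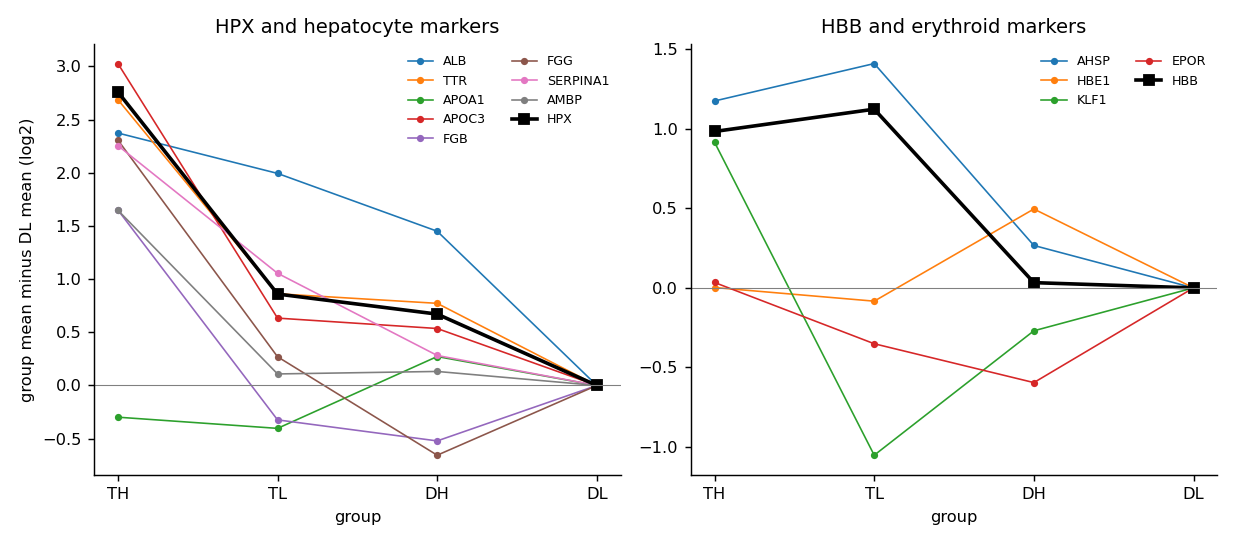
Group means minus the DL mean in log2 units for HPX with the 8 tested hepatocyte markers (left) and for HBB with the 4 tested erythroid markers (right); lines join the 4 groups of a gene. HPX and 7 of 8 hepatocyte markers were highest in TH, while AHSP followed HBB and the other erythroid markers did not. APOC3, FGB, FGG, HBB and AHSP were named only through tables chosen on these arrays.

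HBB, the beta chain of adult hemoglobin, separated the breeds at both altitudes (probe A_72_P055481). The values were 11.28 and 11.24 in TH, 11.38 and 11.42 in TL, 10.31 and 10.31 in DH, and 10.27 and 10.28 in DL. All 4 Tibetan arrays lay above all 4 Duroc arrays by over 0.9 log2 units. The breed difference was 1.04 (SE 0.02), 2.05-fold, and it is given as a description because the probe was named through the breed effect. Within slide 1, TH was 0.98 above DL, and within slide 2, TL was 1.09 above DH. Each of these pairs differs in altitude as well as in breed. Altitude, which played no part in the naming, gave a difference of -0.05 (adjusted p = 0.0518 in limma), a 1.04-fold difference with a 95% interval of 1.00 to 1.07. In Tibetan pigs HBB was 0.14 lower in TH than in TL (adjusted p = 0.0054 in limma, not called), and this turned to 0.02 higher under scaling to the 75th percentile. AHSP, which stabilizes free alpha globin and was also named through the breed effect, was 1.16 higher in Tibetan pigs. The other 3 tested of 19 erythroid markers, EPOR, KLF1 and HBE1, were not called for breed. KLF1, an erythroid transcription factor, ran differently, with a called altitude effect of 0.85 and a called interaction of 2.24. The summed erythroid level was 14.15 to 14.17 in TH, 14.24 to 14.30 in TL, 13.28 to 13.33 in DH and 13.22 to 13.25 in DL, and followed AHSP, whose group means were 13.86 (TH), 14.09 (TL), 12.95 (DH) and 12.68 (DL) and whose naming fixed its breed gap. The part of red cells or blood left in the tissue was not tested.

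The contrasts between single groups share their arrays, so their values are set side by side without a count of overlap. Between altitudes, 3 of 18 member probes were called in Tibetan pigs, against 37.1% of all tested probes (HPX higher in TH, TF and ICA lower). In Duroc pigs 1 was called, against 9.95% of all tested probes (HPX, higher in DH). Between breeds, 3 were called at high altitude, against 9.33% of all tested probes (HPX and HBB higher in TH, ICA lower). At low altitude 3 were called, against 37.5% of all tested probes (TF, HPX and HBB, all higher in TL). Without TF and HBB, which were named through effects that hold these contrasts, 2 of 16 were called in Tibetan pigs, 1 in Duroc pigs, 2 at high altitude and 1 at low altitude. With FDR below 0.05, 10 member probes passed in Tibetan pigs (76.1% of all tested probes), 8 in Duroc pigs (60.2%), 7 at high altitude (58.9%) and 9 at low altitude (77.4%). With FDR below 0.01, the members passing were 4 for breed (61.5% of all tested probes), 5 for altitude (60.1%), 8 for the interaction (63.7%), 9 in Tibetan pigs (67.6%), 6 in Duroc pigs (47%), 7 at high altitude (44.4%) and 7 at low altitude (68.8%). Without the TL arrays, left out after they were seen to be brighter, the count in Duroc pigs was 0 and the count at high altitude was 1 (HPX). Of all tested probes, 0 and 228 were then called. The median over all tested probes moved by 0.12 between the scalings for the interaction (0.21 and 0.33) and for TH minus TL (0.11 and 0.23). Relative to these medians, the interaction was -2.21 for TF, -1.29 for ICA, -0.99 for HP and 1.02 for HPX in the deposited values, and -2.71, -0.81, -0.52 and 1.10 under scaling to the 75th percentile.

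Other genes of iron and heme handling were measured incompletely. Of 29 listed genes for cellular iron transport and its control, 12 had a tested named probe, 8 of them named independently of the effects. Among the 8, 2 were called higher and 2 lower for breed, against 12.8% and 14.6% of all tested probes. For altitude 1 was called higher (14%), and for the interaction 4 were called higher (14.9%). LTF, the iron-binding lactoferrin of neutrophils and secretions, had group means of 12.66 (TH), 11.37 (TL), 8.54 (DH) and 9.81 (DL). Its breed effect was 2.84 and its interaction 2.56, both called. The summed level of the 4 tested of 14 listed neutrophil markers, LTF among them, was 13.53 to 13.56 in the Tibetan groups, 11.34 in DH and 12.44 to 12.46 in DL. The markers differed by altitude. NPG4, PR39 and PMAP-36 were highest in TL and lower at high altitude (-0.81, -1.74 and -2.51), whereas LTF was highest in TH. SLC11A1, a phagosomal metal transporter, was 0.86 lower in Tibetan pigs (called). IREB2, an iron-sensing regulator of ferritin and transferrin receptor transcripts, was 0.55 higher at high altitude and had an interaction of 0.70, both called, and its other probe gave 0.55 and 1.13. STEAP4 and CYBRD1, which reduce iron for transport, had called interactions of 1.82 and 1.23. The interactions of the ferritin receptor for autophagy NCOA4 (0.23) and of the other iron regulatory protein, ACO1 (-0.0094), were not called. SLC40A1, the iron exporter that hepcidin acts on, had no named probe here. Of genes named through tables chosen on these arrays, SLC39A8 (-1.46) and SLC25A37 (-1.03) had negative interactions, and both were highest in TL. PCBP2, an iron chaperone, was well above background on the 2 TL arrays and on no other array.

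Heme breakdown was represented by 5 of 9 listed genes, 3 of them named independently of the effects. At the brightest probe of each of the 3, none was called higher, and 2 were called lower for breed (14.6% of all tested probes), 1 for altitude (12.2%) and 2 for the interaction (13.5%). HMOX1, the heme oxygenase induced by heme and stress, was lowest in TH, with group means of 14.92 (TH), 16.12 (TL), 16.52 (DH) and 16.38 (DL). Its breed effect was -0.93, its altitude effect -0.53 and its interaction -1.34, each called. CD163, the macrophage receptor for complexes of haptoglobin and hemoglobin, had an interaction of -0.64 at its brightest probe, and its other probes gave -1.22 and -1.52, all called. The 6 tested macrophage markers, CD163 among them, summed to 18.05 to 18.06 in TH, 18.32 to 18.36 in TL, 18.91 to 18.93 in DH and 19.06 to 19.08 in DL, and their part in these values was not tested. The 4 probes of the heme exporter ABCG2 disagreed, with interactions from -1.89 to 1.60 (mentioned after the values were seen). Its brightest probe was not called for altitude or the interaction, and 2 of its other probes were called higher for both (0.70 and 0.91 for altitude, 1.49 and 1.60 for the interaction). HMOX2 (2.10) and BLVRA (-3.23), named through tables chosen on these arrays, had opposite interactions. Of 9 listed genes of heme synthesis 3 were tested, and none was lower for altitude or the interaction. UROS, the 1 called for breed (lower in Tibetan pigs) and named through those tables, had its highest group mean in DH (8.47) and its lowest in TL (4.30), where 1 of 2 arrays was well above background.

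The named probes most like each member over the 8 arrays were found among 5469 named probes by Pearson correlation, as a description of 8 points that share 4 groups. Part of these probes were named only through tables chosen on these arrays, and what that adds to the correlations was not tested. HPX was most like TTR (r = 0.9987), APOC3 (0.9987) and SPCS1 (0.9974). HP was most like the surfactant protein gene SFTPA1 (0.9943), ETS1 (0.9890) and LITAF (0.9886). TF was most like CRY2 (0.9996), PEX14 and PAPOLA, and ICA was most like SMARCA2 (0.9980), ITGB1 and TBX3. HAMP was most like EP400 (0.9943), ARID4B and B3GNT5. HBB was most like LOC100624460 (0.9980), SRSF6 and PDIA6, and TFRC was most like TEAD3 (0.9796). The best match of the leading FTH1 probe was weaker, YWHAB at 0.8862.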

How the data were processed

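Lung RNA of 8 pigs was hybridized to Agilent porcine 44 K arrays, 1 pig per array. The deposited scanner files (Feature Extraction 10.7.3.1 per the file headers, 9.1 in the submitters' processing notes) hold spot intensities, local background and background flags. The deposited table holds log2 values that the authors made with RMA and quantile normalization, and their lowest rank correlation with the processed intensities of the same array was 0.999987. From that table, limma 3.58.1 in R 4.3.3 fitted breed, altitude and their interaction over the 34401 probes well above background on at least 1 array. Benjamini-Hochberg adjustment ran over all of them, and FDR below 0.0001, as in the study's methods, was the threshold for a call; all tests were two-sided. Tested on simulated data of the same 34401 probes, with 200 changed by 2 log2 units, the fit recovered 124 for breed, 105 for altitude and 59 for the interaction, with 0 false calls. At FDR below 0.05 it recovered 173, 170 and 147, with 6, 11 and 10 false calls. The simulated noise was independent, had the spread between arrays of a group, and held no slide effect and no brighter arrays. The simulation therefore cannot show how many calls in the real data are false. Its changed share was also far below the 26.3% to 28.4% called in the real data. The adjusted threshold depends on that share, so the numbers recovered do not carry over to these data.

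Of the noncontrol probes 5678 carried a symbol. Symbols came from the study's supplementary tables (3655 probes) and from RefSeq accessions matched to the Sscrofa11.1 gene table (2683 of 3250). Tables chosen on these arrays name probes by their effects, which is stated where it matters. The probe with the highest mean led its gene. The members, the gene lists and the cell type markers were chosen with earlier results of these data known. Of the listed genes of iron and heme handling, a gene was named if called for breed or interaction and among the 12 largest interactions, or if among 10 genes listed by name. Summed levels add the linear values of a list's brightest probes. The 75th percentile scaling used log2 of the processed intensity minus that of each array's 75th percentile. Other alternatives were normexp with quantile normalization, filters, an intensity trend, no moderation, slide and replicate blocks, thresholds, and leaving out each array.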

Additional observations from a re-analysis of the deposited data

Results flagged for a closer look

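The effect of altitude differed between the breeds for 4 genes by the interaction term of limma, (TH minus TL) minus (DH minus DL). The interaction was -2.00 for TF, -1.08 for ICA (adjusted p = 1.19e-05, n = 2 arrays per group), -0.78 for the leading HP probe (adjusted p = 5e-05) and 1.23 for HPX (adjusted p = 4.86e-06). TF was lower at high altitude in both Tibetan arrays and higher in both Duroc arrays, HP likewise, whereas ICA was lower and HPX higher at high altitude in both breeds, by more in Tibetan pigs. TF was named through a list of differential transcripts, so its value is a description and no p is given. Slide and interaction cannot be told apart. The HP value shrank to -0.19 and that of ICA to -0.48 under scaling to the 75th percentile, while TF (-2.38) and HPX (1.43) grew.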

How the results depend on the processing

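The limits are 2 arrays per group, the slide layout, names that cover part of the array, and TL arrays that were brighter than the others. Of 1300 values of single probes under alternatives, 1077 kept their direction and side of the threshold, 97 lost a call, 79 gained one and 47 changed sign, none of them among the 21 called results. The alternatives include the unchanged fit read at looser FDR thresholds, where estimates stay the same and calls can only be gained. A call gained there follows from the threshold alone. The alternatives also include a slide block, whose layout left the breed and altitude values as they were. The 1077 therefore include values that could not change. Elsewhere the cause of the changes was not tested, except that fewer arrays or a replicate block leave fewer degrees of freedom.

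Scaling to the 75th percentile gave 7 called member probes for breed in place of 4, 9 for altitude in place of 3, 2 for the interaction in place of 4, 8 in Tibetan pigs and 7 at low altitude in place of 3 each, and 3 in Duroc pigs in place of 1. Over all tested probes that scaling called 11430 for breed, 10455 for altitude and 11142 for the interaction, in place of 9425, 9041 and 9786. It called 14499 in Tibetan pigs, 15160 at low altitude and 4020 in Duroc pigs, in place of 12779, 12906 and 3423. Normexp on the median signals gave 0 in Duroc pigs, against 1064 of all tested probes. Normexp with local background gave 5 in Tibetan pigs and 2 in Duroc pigs, against 12878 and 3834. An intensity trend gave 6 in Tibetan pigs, 3 in Duroc pigs and 5 at low altitude, against 16052, 7835 and 16252. With RefSeq names alone, 2 were called for breed and 1 at low altitude. FDR below 0.05 gave 6 for altitude, 10 for the interaction, 10 in Tibetan pigs, 8 in Duroc pigs, 7 at high altitude and 9 at low altitude, and FDR below 0.01 gave 5, 8, 9, 6, 7 and 7. Without the TL arrays, 0 were called in Duroc pigs and 1 at high altitude, against 0 and 228 of all tested probes. Leaving out 1 array gave 2 to 3 for breed, 1 to 2 for altitude, 0 to 3 for the interaction, 2 to 3 in Tibetan pigs, 0 in Duroc pigs, 0 to 1 at high altitude and 2 to 3 at low altitude. TF, whose breed value is a description of a probe named through that effect, lost its breed call without any one array, with differences of 0.83 to 0.88. ICA lost its breed, altitude and interaction calls without any TH, TL or DL array (adjusted p up to 2.04e-04). HPX lost its interaction call without either TL array (adjusted p = 1.04e-04 at most), its call at high altitude without TH 1 (1.01e-04) and its call at low altitude without TL 1 (1.04e-04). At high altitude ICA and HBB lost their calls without any one array (adjusted p up to 3.05e-04 and 3.65e-04) and with the replicate block.

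The replicate numbers did not pair the pigs (correlations of deviations from -0.043 to 0.091 between groups), and a replicate block gave 1 called member probe for the interaction, 0 in Duroc pigs and 1 at high altitude. Over all tested probes the block called 3697 for breed in place of 9425, 2888 for altitude in place of 9041 and 4107 for the interaction in place of 9786. It called 0 in Duroc pigs in place of 3423 and 208 at high altitude in place of 3211. A slide block left breed and altitude as they were. The layout fixed this outcome, because slide takes the place of the interaction in that model, so it is no check for slide effects. Without moderation 5639, 5265 and 5663 were called, and normexp on the median signals called 5995 for altitude. With 1 array left out, 2239 to 3590 were called for breed, 1230 to 2393 for altitude and 2679 to 3890 for the interaction. Over all alternatives at the same threshold, the counts ran from 4097 to 16052 in Tibetan pigs (12779), 4052 to 16252 at low altitude (12906), 0 to 7835 in Duroc pigs (3423) and 110 to 7119 at high altitude (3211).

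Signs changed as follows. Scaling to the 75th percentile gave, for the leading HP probe, -0.38 for breed, 0.37 in Tibetan pigs and -0.28 at low altitude, for the other HP probe -0.24, 0.34 and -0.16, and for HBB 0.033 for altitude and 0.023 in Tibetan pigs. For the leading FTH1 probe it gave -0.25 for breed, 0.29 for altitude, 0.48 in Tibetan pigs, 0.094 in Duroc pigs, -0.060 at high altitude and -0.45 at low altitude, and for FTH1 probe A_72_P417204 it gave 0.34 for altitude, 0.14 for the interaction, 0.41 in Tibetan pigs and -0.40 at low altitude. Both normexp settings gave -0.013 for the altitude effect of HP. For the leading FTH1 probe, normexp on the median signals gave -0.0019 for breed, -0.0005 for the interaction, -0.0022 at high altitude and -0.0017 at low altitude, and normexp with local background gave -0.0027 for breed, 0.0013 for altitude, 0.0025 in Tibetan pigs, -0.0014 at high altitude and -0.0040 at low altitude. With 1 array left out, TFRC ranged from -0.051 to 0.23 for breed and from -0.0027 to 0.28 for altitude, HP from -0.012 to 0.023 for breed and from -0.017 to 0.017 for altitude, HAMP from -0.23 to 0.027 at high altitude, and the leading FTH1 probe from -0.010 to 0.020 for breed, -0.024 to 0.036 for the interaction, -0.048 to 0.012 in Tibetan pigs, -0.016 to 0.032 at high altitude and -0.028 to 0.032 at low altitude.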
